A study of Danio rerio with 13 samples.

Results

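The genes described here are MSMO1 (ENSDARG00000055876) and the 60 genes whose level ran most closely with it over 10 zebrafish livers, 61 genes of 10316 that were measured well enough to be ranked and of 32105 in the count table. MSMO1 encodes methylsterol monooxygenase, which begins the removal of a pair of methyl groups from the sterol ring on the way to cholesterol. The rule took the livers with under 100 CPM (counts scaled to a common library total) of apoea, an apolipoprotein gene, divided the counts by median-of-ratios size factors, kept genes with a mean of 50 or more normalized counts, and ranked them by Pearson's r with MSMO1 on log2(normalized count + 1). Values of r, levels in these 10 livers and counts of pathway genes among the members therefore describe the choice and carry no test. The labels of genotype played no part in the choice, nor did the levels of genes other than apoea in the 3 livers left out. The limit on apoea did part the livers by the make-up of their libraries, as given below. Genotypes are compared over livers that include these 10.

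RNA sequencing measured the livers of 13 male zebrafish of the AB strain at 3 months of age. Of these, 5 were wild type (tert+/+), 5 heterozygous (tert+/-) and 3 homozygous (tert-/-) for a mutation of tert, the gene of the catalytic subunit of telomerase. The methods name a single mutant line, tert hu3430, which the study used as a model of ageing. Of the 10 livers used, 4 were tert+/+ (numbers 1 to 4), 4 were tert+/- (numbers 1, 2, 4 and 5) and 2 were tert-/- (numbers 2 and 3). The numbers only name the livers.

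tert itself (TERT, ENSDARG00000042637) stood at 0.484 to 11.4 CPM scaled by the trimmed mean of M-values (TMM) in tert+/+, 2.68 to 9.80 in tert+/- and 3.95 to 5.68 in tert-/- livers, so its level did not check the genotype labels, and a nonsense allele need not lower its transcript. Total counts ran from 17801374 in tert+/+ 1 to 37309651 in tert+/- 5. All 25 hepatocyte marker genes had counts in each of the 10 livers, where they took 9.89% to 27% of the counts. In the 3 livers left out (tert+/+ 5, tert+/- 3 and tert-/- 1) they took 5.05% to 7.87%, genes that mark the intestine took 3.12% to 4.64% against 0.107% to 0.259%, and apoea stood at 11863 to 18930 CPM against 2.15 or less. Heart muscle genes took 0.902% of the counts in tert+/+ 1 and 0.788% in tert+/- 5, and 0.0320% or less in the other livers. Fewer cells of a type and less RNA per cell cannot be told apart in such samples.

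Cells build cholesterol from acetyl-CoA. The mevalonate arm condenses acetyl-CoA into isoprenoids, and the sterol arm joins these into squalene, closes the rings and trims the product to cholesterol. In vertebrates many of these genes are transcribed together by the sterol-sensing factor SREBF2, while the related SREBF1 acts mainly on fatty acid synthesis. Both syntheses use cytosolic acetyl-CoA and consume NADPH, and the liver is a main site of both.

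MSMO1 stood at 678, 1531, 841 and 1120 normalized counts in tert+/+ 1, 2, 3 and 4. In tert+/- 1, 2, 4 and 5 it stood at 1964, 1916, 4807 and 13499, and in tert-/- 2 and 3 at 657 and 8382. The 3 high livers were thus tert+/- 5, tert-/- 3 and tert+/- 4, and the lowest was the other tert-/- liver. Over the 10 livers the level ranged 20.5-fold. Within 1 genotype it ranged 2.26-fold in tert+/+, 7.05-fold in tert+/- and 12.8-fold in tert-/-, so much of the course ran between fish of the same genotype. In tert+/+ MSMO1 ranged least of the 13 members of the mevalonate and sterol arms. The median range of these 13 was similar in each genotype: 7.37-fold in tert+/+, 8.14-fold in tert+/- and 8.04-fold in tert-/-.

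**Figure D1:**
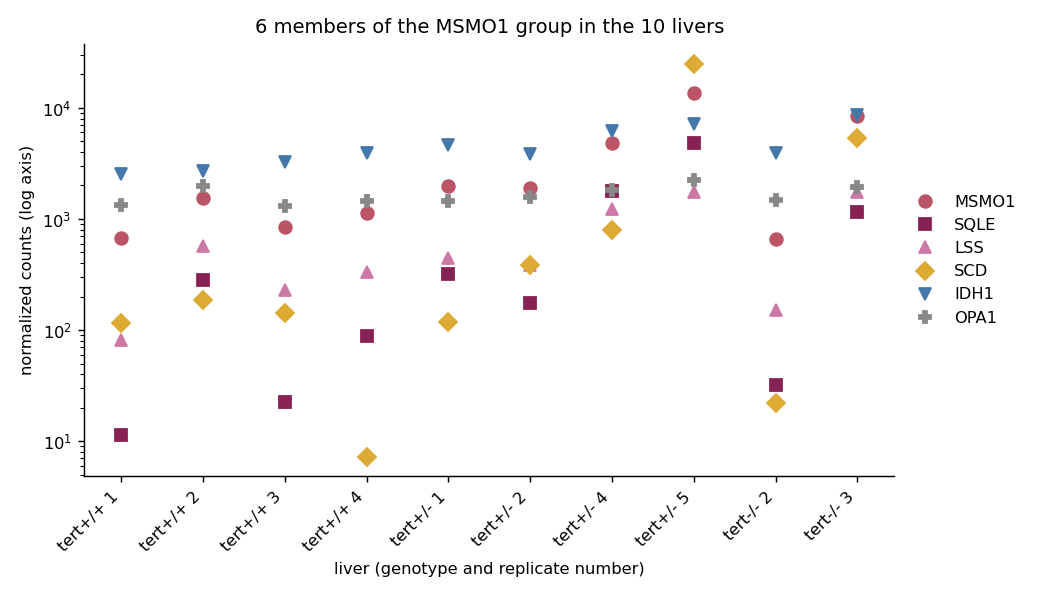
Normalized counts (log axis) of 6 members in each of the 10 livers, grouped by genotype, with 1 symbol for each gene. MSMO1, SQLE, LSS and SCD stand high in tert+/- 4, tert+/- 5 and tert-/- 3, while IDH1 and OPA1 range 3.37-fold and 1.69-fold in all.

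The 60 partners had an r of 0.801 to 0.974 with MSMO1 (median 0.854), and the other 10255 genes ran from -0.984 to 0.799 (median 0.02). No gap separated them: the last members were PNPLA8 (0.803), RPA2 (0.803) and AIFM2 (0.801), and the next genes were PARL (0.799), ubb (0.799) and PIGQ (0.798). Between any pair of members r was 0.367 to 0.989, with a median of 0.786. Among the 13 members of the mevalonate and sterol arms the median was 0.918, against 0.759 among the 39 members that were in no list of pathway genes.

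The rule held the members to a narrow span of r, but they differed widely in how far they moved. The ratio of the highest to the lowest liver had a median of 4.08 over the 61 members, with 33.4 in the mevalonate and sterol arms (5.72 to 424), 146 in fatty acid synthesis (3.78 to 3444), 5.90 in NADPH supply (3.37 to 8.69) and 2.74 in the members of no list (1.67 to 17.6). Liver tert+/- 5 held the highest value of 50 members, tert-/- 3 of 7 and tert+/- 4 of 4. The lowest value lay in tert+/+ 1 for 25 members and in tert-/- 2 for 20. The same 3 livers were highest as for MSMO1 in 37 of the 61 members, MSMO1 included, and in 139 of all 10315 other genes ranked. Tert+/- 5 and tert+/+ 1 were also the libraries with the most and the fewest counts, and the only ones with heart muscle transcripts near 1% of the counts. The values of MSMO1 by genotype without the pair are given with that comparison.

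**Figure D2:**
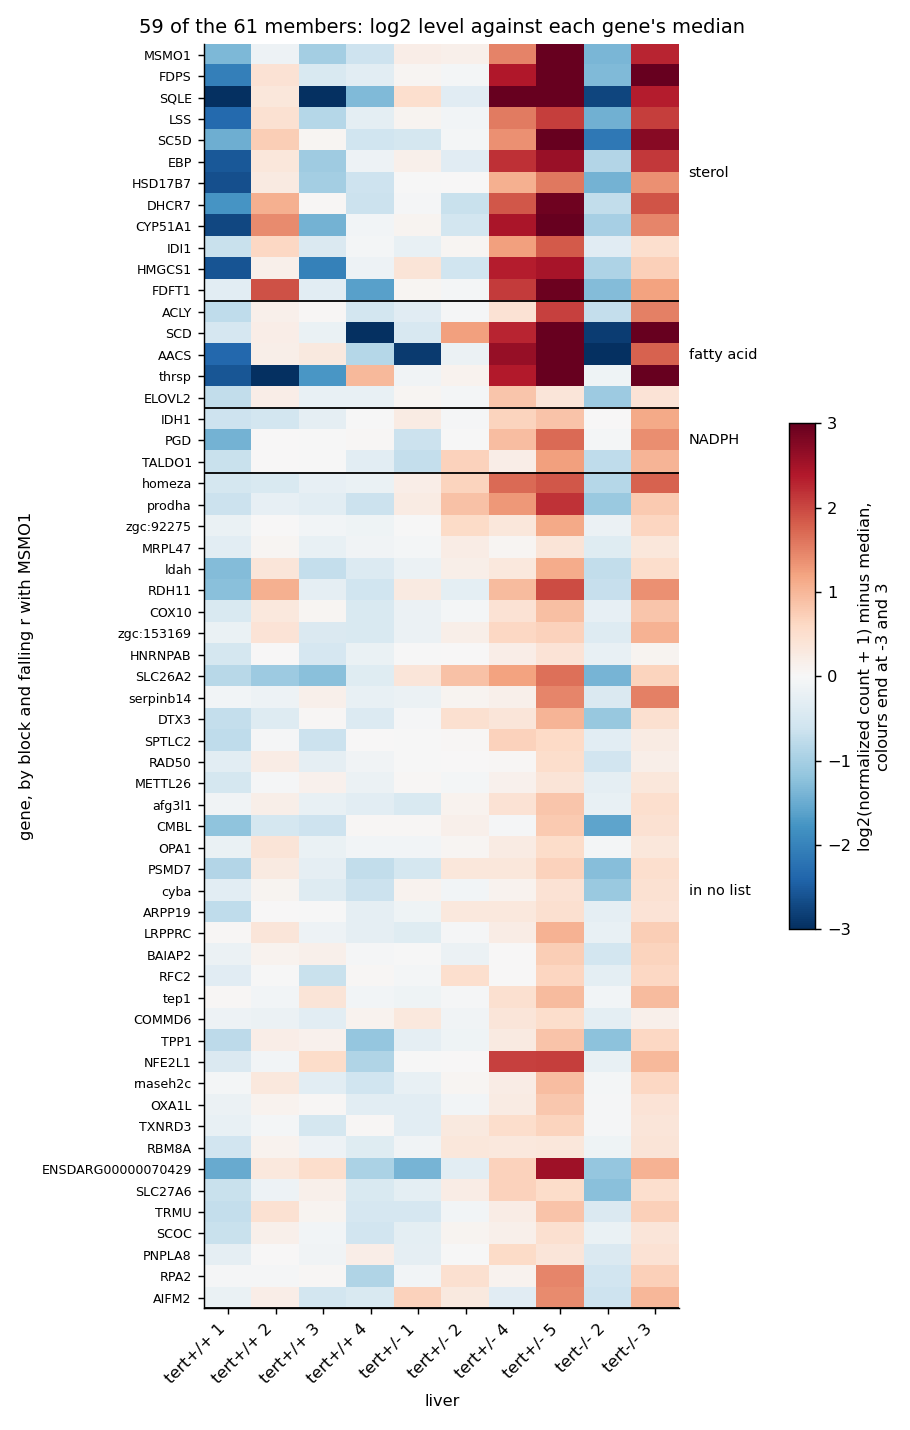
Heat map of 59 of the 61 members (rows, by pathway and then by falling r with MSMO1) in the 10 livers (columns). Colour gives log2(normalized count + 1) minus the gene's median over the livers, red for higher and blue for lower, with colours ending at -3 and 3. The columns of tert+/- 5 and tert-/- 3 are red nearly throughout, and the pathway genes at the top are the deepest in colour.

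Of the mevalonate arm, 3 of 9 measured genes were members: FDPS, IDI1 and HMGCS1. FDPS (ENSDARG00000040890), which makes farnesyl pyrophosphate, was the closest partner of all (r = 0.974). It stood at 131, 731, 400 and 435 normalized counts in the tert+/+ livers, 568, 524, 2869 and 8123 in the tert+/- livers, and 219 and 8077 in the tert-/- livers. HMGCS1 (ENSDARG00000103025), which makes HMG-CoA at the head of the arm, had an r of 0.862 and ran from 399.7 in tert+/+ 1 to 13334 in tert+/- 5. Its values in tert+/- 4 and tert+/- 5 were close, at 12275 and 13334, but tert-/- 3 stood at 3980, lower relative to these than for MSMO1. IDI1 (ENSDARG00000019976), the isomerase of the isoprenoid units, had the smallest range of the 13 sterol members, 144 to 821 normalized counts.

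Other measured genes of the mevalonate arm followed less closely. The library kit keeps no record of strand, so reads of overlapping genes cannot be told apart, and genes with near-identical copies are uncertain. ACAT2, which joins acetyl-CoA units, had an r of 0.713, the kinase MVK 0.653, the decarboxylase MVD 0.629, and GGPS1, which leads to geranylgeranyl pyrophosphate and away from sterols, -0.46.

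Of the sterol arm, 10 of 13 measured genes, MSMO1 included, were members. SQLE (ENSDARG00000079946), squalene epoxidase, had the widest range of the sterol members at 424-fold. It stood at 11.4, 285, 22.7 and 89.3 normalized counts in the tert+/+ livers, 319, 177, 1781 and 4829 in the tert+/- livers, and 32.2 and 1160 in the tert-/- livers. LSS (ENSDARG00000061274), which closes the sterol rings, stood at 82.0, 569, 229 and 336, then 441, 388, 1226 and 1744, and then 152 and 1750 in the same order. SQLE was thus much higher in tert+/- 5 than in tert-/- 3, whereas LSS was level between them.

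The later steps followed the same course. CYP51A1 (ENSDARG00000042641), the demethylase that acts on lanosterol, ran from 67.2 to 4416 normalized counts, SC5D, a sterol desaturase, from 38.0 to 1748, and EBP, a sterol isomerase, from 67.2 to 2373. HSD17B7, which works in the same demethylation as MSMO1, ran from 64.9 to 1233, and DHCR7, a sterol reductase late in the pathway, from 29.6 to 784. Earlier in the arm, FDFT1 (ENSDARG00000101062), squalene synthase, was the least close of the 13 mevalonate and sterol members at r = 0.804. It was counted low, with 14.5 in tert+/+ 4 and 368 in tert+/- 5. Tert+/- 4 and tert+/- 5 were among the 3 highest livers for all 13 mevalonate and sterol members, and tert-/- 3 for 11 of them.

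The sterol genes outside the group were those with small ranges. NSDHL, which acts beside HSD17B7 in removing the methyl groups, ran from 438 to 1168 normalized counts (r = 0.651). TM7SF2 (0.171) and LBR (0.133), a pair of genes that share the activity of a sterol ring reductase, did not follow MSMO1. LBR ran from 70.07 to 137 normalized counts.

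The fatty acid synthesis members were ACLY, SCD, AACS, thrsp and ELOVL2, 5 of 25 measured genes. ACLY (ENSDARG00000099079), which splits citrate to give cytosolic acetyl-CoA, was the closest (r = 0.932), at 706, 1328, 1214 and 816 normalized counts in tert+/+, 941, 1164, 1596 and 4955 in tert+/-, and 720 and 3393 in tert-/- livers. SCD (ENSDARG00000033662), the desaturase that makes monounsaturated fatty acids, had the widest range of any member, 3444-fold. It stood at 115, 187, 143 and 7.24 in tert+/+, 118, 387, 797 and 24942 in tert+/-, and 21.9 and 5361 in tert-/- livers. Tert+/- 5 and tert-/- 3 were therefore far above the other 8 livers, whose highest was 797. The fold of SCD divides by the 7.24 of tert+/+ 4, a count near the floor, so its size is imprecise. AACS, which activates acetoacetate, ran from 28.8 to 7833, and thrsp, a protein of lipogenic liver, from 57.3 to 8354 normalized counts. ELOVL2, which lengthens polyunsaturated fatty acids, ran only from 4090 to 15457 and was highest in tert+/- 4.

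The core enzymes of fatty acid synthesis followed less closely. FASN, fatty acid synthase, had an r of 0.709, with 57146 normalized counts in tert+/- 4, 93025 in tert+/- 5 and 26730 in tert-/- 3. The elongase ELOVL6 had 0.688, and ACACA, acetyl-CoA carboxylase, 0.406. ACACA stood at 53850 in tert-/- 2, one of the lowest livers for sterol genes, and at 34292 in tert-/- 3. ACSS2, an acetyl-CoA synthetase, ran against MSMO1 (-0.607), while acss2l of the same list had 0.646. A second gene with the symbol ACLY (ENSDARG00000055652) had 0.428. Over the 25 genes the median r was 0.406 and 11 were above 0.5, against a median of 0.023 and 11.7% above 0.5 among all 10315 genes.

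Of the list named NADPH supply, 4 of 7 measured genes were members, among them IDH1, PGD and TALDO1. Not every gene of the list makes NADPH itself: TALDO1, PGLS and RPIA encode other enzymes of the pentose phosphate pathway. IDH1, cytosolic isocitrate dehydrogenase, stood at 2548, 2708, 3250 and 3923 normalized counts in tert+/+, 4645, 3859, 6219 and 7076 in tert+/-, and 3949 and 8593 in tert-/- livers. PGD, phosphogluconate dehydrogenase of the pentose phosphate pathway, ran from 1164 to 10107. TALDO1, transaldolase of the same pathway, ran from 1040 to 4150. In these genes tert-/- 3 and tert+/- 5 were high, while tert+/- 4 was among the 3 highest for IDH1 and PGD but not for TALDO1. ME1, malic enzyme, had an r of 0.623, PGLS 0.605 and RPIA, an isomerase of the pentose phosphates, -0.498.

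**Figure D3:**
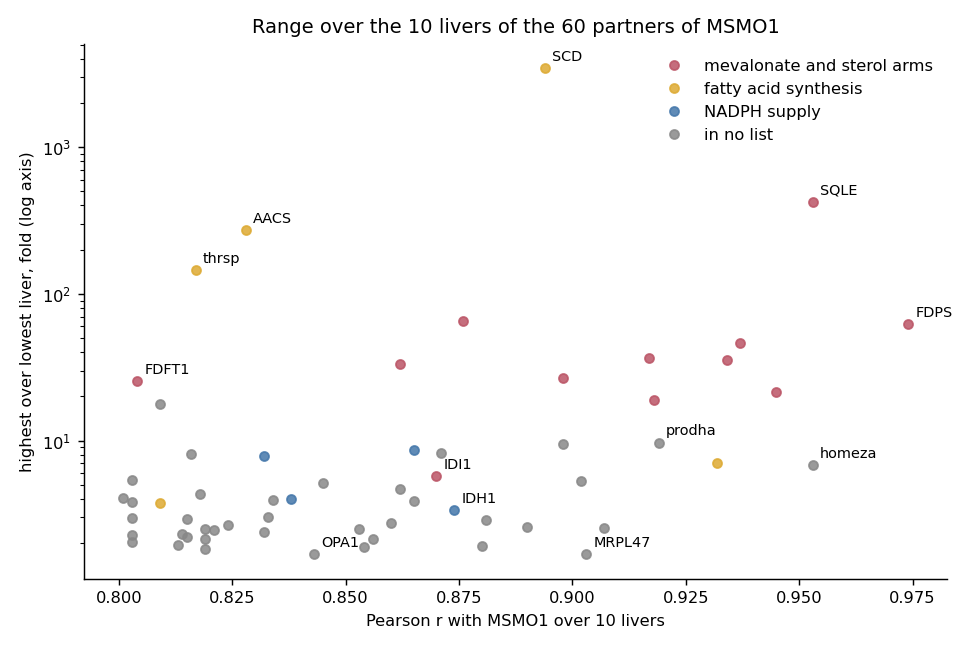
Each point is 1 of the 60 partners, placed by its Pearson r with MSMO1 over the 10 livers (horizontal) and by the fold between its highest and lowest liver (vertical, log axis), and coloured by pathway. The widest ranges are those of SCD (3444-fold), SQLE (424-fold), AACS (272-fold) and thrsp (146-fold), and most members of no list range under 10-fold at any r. The fold of SCD divides by a count near the floor and is imprecise.

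The remaining 39 members were in none of the lists, and the groups in which they are given here were formed after their values were seen. The closest was homeza (ENSDARG00000054304, r = 0.953), a homeobox gene, at 47.8, 50.2, 59.0 and 60.4 normalized counts in tert+/+, 80.6, 112, 228 and 259 in tert+/-, and 38.0 and 242 in tert-/- livers. Next came prodha (ENSDARG00000086746, 0.919), proline dehydrogenase, at 485, 646, 610 and 490 in tert+/+, 901, 1395, 1878 and 3418 in tert+/-, and 353 and 1314 in tert-/- livers. SLC26A2 (ENSDARG00000011618, 0.871), a sulphate transporter, stood at 1138, 950, 845 and 1564, then 2592, 3698, 4619 and 6289, and then 764 and 3212. In these genes, as in MSMO1 by which they were chosen, every tert+/- liver of the 10 lay above every tert+/+ liver. This held for 0.766% of the 10316 genes. In tert+/- 3, left out by the rule, prodha stood at 3.94 TMM-normalized CPM and SLC26A2 at 11.7. The tert+/+ livers, number 5 included, held 6.62 to 26.7 and 9.99 to 62.1. Homeza in tert+/- 3 stood at 7.92, above the 1.93 to 2.95 of the tert+/+ livers.

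Members with other parts in lipid metabolism were ldah, a hydrolase of lipid droplets, SPTLC2, a subunit of the enzyme that begins sphingolipid synthesis, SLC27A6, a fatty acid transporter, and PNPLA8, a phospholipase. These 4 genes had an r of 0.803 to 0.902 and ranged 2.02-fold to 5.29-fold. RDH11 (0.898), a retinol dehydrogenase, ran from 55.8 to 527 normalized counts, and AIFM2 (0.801), which reduces ubiquinone in mammalian cells, from 184 to 750.

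MRPL47, COX10, OPA1, LRPPRC, OXA1L, TRMU and afg3l1 encode mitochondrial proteins, as does prodha above, whose range was wider. The 7 had an r of 0.803 to 0.903 and ranged 1.67-fold to 2.96-fold. COX10, which adds a farnesyl group to haem for cytochrome c oxidase, ran from 316 to 815 normalized counts. OPA1, which fuses the inner membrane, ran from 1319 to 2230. RAD50, RFC2, RPA2 and rnaseh2c, genes of DNA replication and repair, ranged 2.13-fold to 5.40-fold.

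NFE2L1 (0.816), a membrane-bound transcription factor of proteasome genes, stood at 324 and 330 normalized counts in tert+/- 4 and tert+/- 5, at 154 in tert-/- 3 and at 41.0 to 114 in the other livers. PSMD7 (0.834), a subunit of the proteasome, ran from 121 to 478. TXNRD3 (0.814), a thioredoxin reductase, ran from 742 to 1703, TPP1 (0.818), a lysosomal peptidase, from 105 to 453, and cyba (0.833), a subunit of the NADPH oxidase, from 62.2 to 187.

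The other members of no list were zgc:92275, zgc:153169, HNRNPAB, serpinb14, DTX3, METTL26, CMBL, ARPP19, BAIAP2, tep1, COMMD6, RBM8A, ENSDARG00000070429 and SCOC. They had an r of 0.803 to 0.907. ENSDARG00000070429, which has no symbol here, had the widest range of the 39, from 15.9 in tert+/+ 1 to 281 in tert+/- 5. Without tert+/- 5, and with size factors taken again over the other livers, this gene, DTX3 and RPA2 fell below the mean of 50 normalized counts. Then 57 of the 60 partners could be ranked. Their passing of that limit thus depended on tert+/- 5, in which they were highest, through its counts or through the size factors. RPA2 also fell below the limit without tert+/+ 2 and without tert-/- 3.

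The genes that sense, take up and export sterols shared little of the course, although several are known targets of the same factor. None of the 14 measured genes of sensing and uptake was a member, and their median r was 0.2. The closest were STARD4, a sterol carrier (0.569), insig1, the sterol-regulated brake on SREBF processing (0.515), and ldlrb, a lipoprotein receptor (0.483). Insig1 stood at 192, 1339, 631 and 2265 normalized counts in tert+/+, 981, 2044, 4265 and 3536 in tert+/-, and 650 and 497 in tert-/- livers. It was thus high in tert+/- 4 and tert+/- 5 with MSMO1, but low in tert-/- 3. The factor genes srebf2 and SREBF1 had an r of 0.202 and 0.383. Their products are controlled by cleavage, which RNA does not measure.

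Of the genes of sterol export and esters, SOAT1 (0.692) and ABCA1 (0.668) ran with MSMO1, and the sterol-sensing receptor NR1H3 (-0.696) and CETP (-0.735), which moves cholesteryl esters between lipoproteins, ran against it. CETP stood at 867 normalized counts in tert+/- 5 and at 2806 to 6474 in the other livers. In bile acid synthesis the median r was 0.343 over 7 genes, and NR1H4, the bile acid receptor, ran against MSMO1 (-0.70).

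Other lists differed in their median r. Of 21 cell cycle genes in the list, 8 passed the filter on the mean. Their median r was 0.593 and all were above 0.5, led by MCM6 (0.752) of the replication helicase. A high value in tert+/- 5 helped genes past that filter: MCM3 stood at 172 normalized counts there and at 6.35 to 85.2 in the others. The count above 0.5 was thus partly fixed by the filter and is only a description. MCM6 stood at 62.6, 14.3, 14.5 and 16.9 normalized counts in tert+/+, 72.5, 49.0, 56.4 and 203 in tert+/-, and 11.5 and 68.7 in tert-/- livers. Unlike MSMO1, it was high in tert+/+ 1 and tert+/- 1. Fatty acid oxidation had a median r of 0.013 over 26 genes, from PPARA (0.58) down to ETFB (-0.678). The unfolded protein response had -0.196 over 27 genes, with DDIT3 at 0.762 and DNAJB9 at -0.77, and heat shock genes had 0.174. The 18 clock genes had a median r of 0.184, with 4 above 0.5 and 3 below -0.5. Among them PER1 had 0.624, and PER3 and BHLHE41 had -0.794 and -0.814. PER3 stood at 487 to 595 in the 3 livers with the most MSMO1 and at 679 to 1813 in the others.

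**Figure D4:**
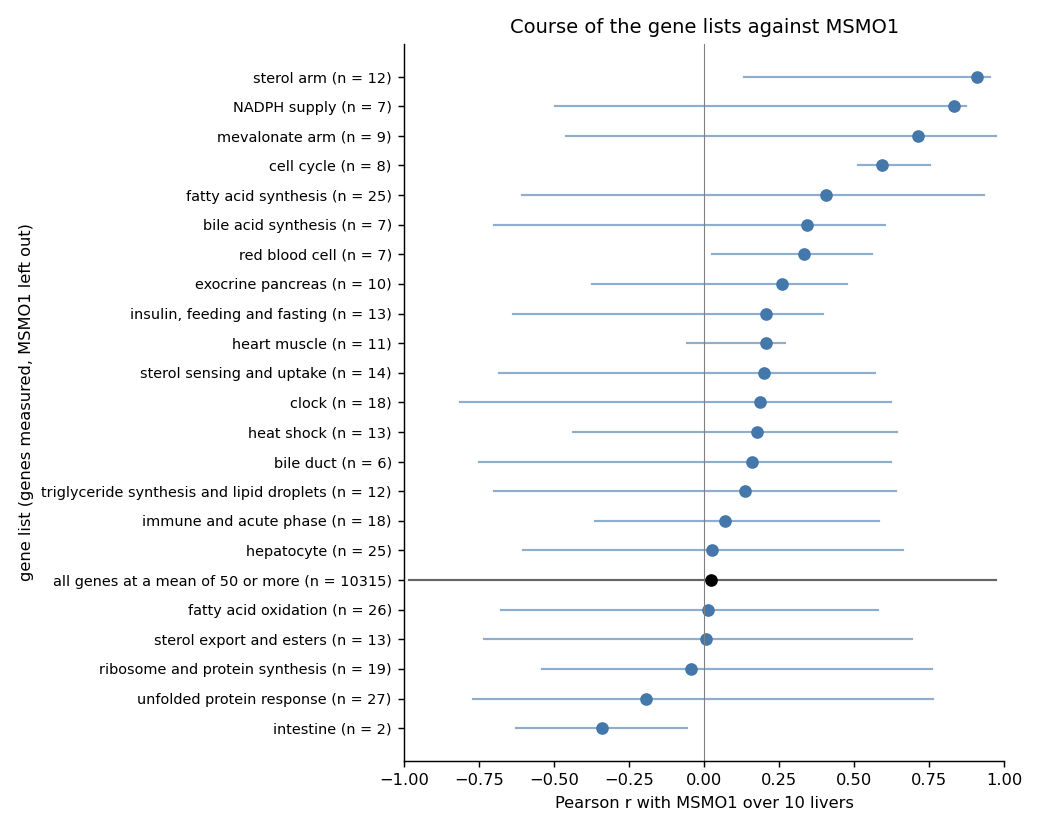
Median (point) and range (line) of Pearson's r with MSMO1 over the 10 livers for each of 22 gene lists, with MSMO1 left out, and for all genes ranked (black). The sterol arm (median 0.908), NADPH supply (0.832), the mevalonate arm (0.713) and the cell cycle (0.593) lie to the right. The intestine (-0.343) and the unfolded protein response (-0.196) lie to the left. The intestine median rests on only 2 measured genes of the 19 listed, at -0.628 and -0.058.

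Library measures were set against the level of MSMO1 over the 10 livers, with 7 relations in the family. Their values did not enter the rule, except that total counts were the divisor in the CPM of apoea. The limit on apoea had already left out the livers richest in intestine transcripts. The intestine share therefore ran only from 0.107% to 0.259% here. Total counts had a Pearson r of 0.543 (permutation p = 0.107, adjusted p = 0.318) and a Spearman rho of 0.406 (permutation p = 0.247), and r was 0.162 without the 2 livers farthest from the median. The share of mitochondrially encoded transcripts had an r of -0.452 (permutation p = 0.182, adjusted p = 0.318) and a rho of -0.794 (permutation p = 0.00913, adjusted p = 0.0639). Without the 2 farthest livers its r was -0.685 (permutation p = 0.0644, adjusted p = 0.451). This share was 54.7% in tert+/+ 4 and 32.8% in tert-/- 2, both low in MSMO1, and 7.93% to 14.4% in the other 8 livers. Hepatocyte markers had an r of 0.469 (rho 0.624), red blood cell genes 0.567 (rho 0.588), exocrine pancreas genes 0.216 (rho 0.261), heart muscle genes 0.142 (rho 0.079) and intestine genes 0.101 (rho 0.176), with permutation p-values of 0.0613 to 0.838. None of the 7 passed an adjusted p of 0.05. The part of these measures in the shared course was not tested, except for total counts: with a line on their logarithm removed, the group kept 33 of the 60 partners and held 12 mevalonate and sterol genes, MSMO1 included.

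The comparison of genotypes asked whether the course goes with the loss of tert copies. All 13 livers entered 1 edgeR quasi-likelihood fit, with Benjamini-Hochberg adjustment over 16376 genes and a threshold of 0.05. All 61 members passed its filter on low counts. The p-values measure the spread between these livers only, and the comparisons share livers and are given side by side. No member was called in any of the 3 comparisons, where the fit called 0.0% of all genes. Low unadjusted p-values were scarce too: only 184 to 218 of the 16376 genes had one under 0.05, whichever genotypes were compared. With no difference at all, a share near 0.05 of the genes would be awaited, so these tests were cautious. The lack of calls therefore does not show that the genotypes are alike. Each genotype held 1 liver rich in intestine transcripts, and the part of these livers in the spread was not tested. With DESeq2 on the same livers 3 genes were called between tert-/- and tert+/+, and 2 between tert-/- and tert+/-. Between the remaining pair of genotypes 0 were called, and no member was among the genes called. DESeq2 gave no p-value for the members SCD and TXNRD3 there, so it did not test them.

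MSMO1 stood at 27.3, 63.2, 34.7, 44.5 and 43.5 TMM-normalized CPM in tert+/+ 1 to 5, a mean of 42.6 ± 13.5 (SD, n = 5). In tert+/- 1 to 5 it stood at 80.9, 77.1, 242, 192 and 548, a mean of 228 ± 193 (SD, n = 5). In tert-/- 1 to 3 it stood at 660, 26.6 and 343, a mean of 343 ± 317 (SD, n = 3). All tert+/- livers were above all tert+/+ livers, while 1 tert-/- liver was below them all. The log2 fold change was 2.42 (SE 0.74) in tert+/- against tert+/+, 3.01 (SE 0.81) in tert-/- against tert+/+ and 0.59 (SE 0.80) in tert-/- against tert+/- (edgeR, adjusted p = 1.0 in each).

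The other sterol members had wide spreads too, given here as log2 fold changes that did not pass the adjusted threshold. SQLE had 4.03 (SE 1.35) in tert+/- and 4.61 (SE 1.45) in tert-/- against tert+/+, FDPS 2.5 (SE 0.95) and 3.20 (SE 1.04), HMGCS1 2.41 (SE 0.94) and 2.91 (SE 1.02), and LSS 1.61 (SE 0.70) and 2.13 (SE 0.78). In each of them tert-/- 2 lay within the values of the tert+/+ livers. Without tert-/- 1 the value in tert-/- against tert+/+ was 2.34 for SQLE, 0.59 for HMGCS1, 0.63 for CYP51A1 and 0.09 for IDI1, and in the 10 livers it was 2.54, 0.85, 0.66 and 0.19. EBP, HSD17B7, CYP51A1, SC5D, DHCR7, IDI1 and FDFT1 had log2 fold changes of 1.22 to 2.09 in tert+/- and of 1.85 to 2.62 in tert-/-. Of the measured genes outside the group, MVK had 0.58 (SE 0.34) and 1.13 (SE 0.39), and LBR -0.18 (SE 0.24) and -0.50 (SE 0.29).

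In tert+/- against tert+/+, 61 of 61 members had a fold change above 0, against 46.5% of all genes tested, and 14 had an unadjusted p under 0.05 in that direction, against 0.727%. The median log2 fold change was 0.53 over the members and -0.03 over all genes. It was 1.84 over the 13 mevalonate and sterol members, 2.81 over the 5 of fatty acid synthesis, 0.57 over the 4 of NADPH supply and 0.35 over the 39 of no list. SCD had the highest value, 5.78 (SE 2.05). It stood at 1013 TMM-normalized CPM in tert+/- 5, at 4.07 to 31.9 in the other tert+/- livers and at 0.288 to 7.72 in the tert+/+ livers. The medians of SCD were 15.6 and 4.63. Members move together, so these counts are not of independent genes. They were also chosen for following MSMO1 in 10 of these livers, and every tert+/- liver there was above every tert+/+ liver for MSMO1, so the direction of the members was largely fixed by the choice. The counts of members in all comparisons are therefore a description, and nothing is read from their distance to the share of all genes.

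In tert-/- against tert+/+, 58 members had a fold change above 0, against 49.2% of all genes, and 13 had an unadjusted p under 0.05 in that direction, against 0.824%. The median was 0.42 over the members and -0.01 over all genes, with 2.38 over the mevalonate and sterol members (1.65 in the 10 livers) and 0.18 over those of no list. Without single livers the members' median ran from 0.10 without tert-/- 3 to 0.76 without tert-/- 2. Of the 13 with such a p, 11 were mevalonate or sterol genes. In tert-/- against tert+/-, 26 members were higher, against 50.6% of all genes, with a median of -0.06 and 0 at an unadjusted p under 0.05 in either direction.

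The 10 livers alone, where intestine transcripts were scarce, are those that the rule used, and their counts carry no support. In them 61 members were higher in tert+/- than in tert+/+ (43.3% of all genes were), and 14 had an unadjusted p under 0.05 in that direction (1.21% of all genes). In tert-/- against tert+/+, 59 were higher (46.7% of all genes), and 4 had such a p (0.894% of all genes). MSMO1 then had a log2 fold change of 2.37 (SE 0.82) in tert+/- and 2.12 (SE 0.92) in tert-/-. By edgeR no member was called in these livers. There 305 to 383 of 16219 genes had an unadjusted p under 0.05 in either direction, again a share below 0.05. DESeq2, a choice made after the data were seen, called 10 genes in tert+/- against tert+/+, 0.0617% of those tested, and 1 of them was a member: SLC26A2, with a log2 fold change of 1.93 (SE 0.46, DESeq2 adjusted p = 0.0228; edgeR adjusted p = 1.0 in the same livers). All 4 tert+/- livers were above all 4 tert+/+ livers for 4 members, MSMO1, homeza, prodha and SLC26A2, and for 0.766% of the 10316 genes.

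Single livers weighed heavily in these values. Without tert+/- 5 and tert+/+ 1 among the 10, a setting added after the data were seen, MSMO1 had a log2 fold change of 1.31 (SE 0.76) in tert+/- and 1.95 (SE 0.83) in tert-/- against tert+/+, and of 0.63 (SE 0.83) in tert-/- against tert+/-, where it was -0.25 (SE 0.97) with all 10. Of the 13 livers, leaving out tert+/- 5 lowered the members with an unadjusted p under 0.05 in tert+/- against tert+/+ from 14 to 4. Of all 16074 genes tested then, 125 had such a p and were higher. Leaving out tert-/- 3 lowered the members higher in tert-/- than in tert+/+ from 58 to 34 of 61, beside 8200 of all 17313 genes tested then.

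**Figure D5:**
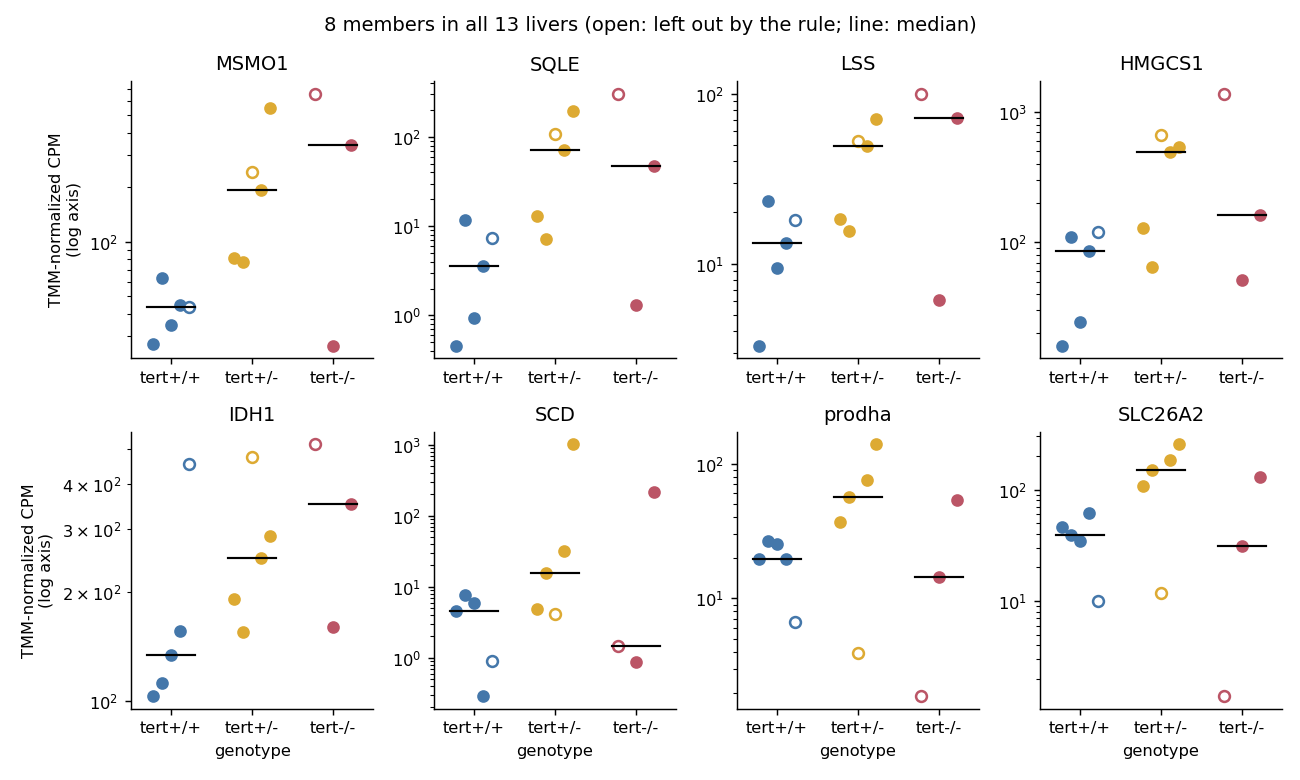
TMM-normalized CPM (log axis) of 8 members in all 13 livers by genotype, with filled points for the 10 livers that the rule used, open points for the 3 it left out and a line at the median of each genotype. The tert+/- livers lie above the tert+/+ livers for MSMO1, the tert-/- livers lie on both sides of them, and the open points are the lowest for prodha and SLC26A2 and the highest for IDH1 within each genotype.

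The 3 livers left out allow no test, as each is of another genotype, but show which members held a place there. In tert-/- 1, 9 of the 13 mevalonate and sterol members were above the range of the 10 livers and all 13 were above their median. In tert+/- 3, 3 were above the range and 13 above the median, and in tert+/+ 5 the numbers were 0 and 8. Of all 61 members, 40, 42 and 37 were above the median in tert-/- 1, tert+/- 3 and tert+/+ 5, and 19, 13 and 10 above the range. The share of all genes was not counted, so these counts only describe the members. HMGCS1 stood at 1393 TMM-normalized CPM in tert-/- 1, 669 in tert+/- 3 and 120 in tert+/+ 5, against 16.1 to 542 in the 10 livers. SQLE stood at 306, 109 and 7.46, against 0.459 to 196. The sterol members, MSMO1 among them, thus all stood above their medians in tert-/- 1 and tert+/- 3.

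Other members parted from them there. SCD stood at 1.47 TMM-normalized CPM in tert-/- 1, 4.07 in tert+/- 3 and 0.898 in tert+/+ 5, within the lower part of its range of 0.288 to 1013. Thrsp, at 0.159, 0.671 and 2.61, was below the 10 livers in the first and second of these and within their range in the third. In all, 5 members, prodha, SLC26A2, CMBL, BAIAP2 and SLC27A6, were below the range in all 3, and 9 were above it in all 3: IDH1, METTL26, cyba, RFC2, tep1, NFE2L1, TXNRD3, SCOC and RPA2. How many of all genes lay outside the range in all 3 was not counted, so these numbers are only a description. SLC26A2 stood at 1.4, 11.7 and 9.99 against 30.9 to 255, and TXNRD3 at 194, 333 and 279 against 30.6 to 69.2. These 3 livers also held the most intestine and the fewest hepatocyte transcripts, as given above, and the part of either in these members was not tested. Over all 13 livers the r with MSMO1 stayed at 0.858 to 0.955 for the 12 mevalonate and sterol partners, was 0.578 for SCD and 0.071 for thrsp, and ranged down to -0.174 for BAIAP2.

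The rule was also applied again without single livers. Of the 60 partners, 26 were taken in all 10 such groups, 10 of them among the 12 mevalonate and sterol partners. The exceptions were IDI1 and FDFT1. With each genotype centred on its own mean, r was 0.687 to 0.983 for the 60 partners, and FDPS (0.983) and SC5D (0.976) stood above their uncentred values, in livers on which the partners had been chosen. Only 16 of the 60 were then again among the highest 60, and the group so formed held 7 mevalonate and sterol genes, MSMO1 included.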

How the data were processed

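Livers of 13 fish were sequenced with a kit that does not mark strand (TruSeq RNA v2). The authors deposited a table of raw read counts per Ensembl gene, used here, and a table of RPKM values, not used here. The build GRCz10, the counter featureCounts 1.4.6-p4, the aligner STAR 2.4.1d and bcl2fastq 1.8.4 are listed in the submitters' notes without their roles. The methods describe kallisto instead, so which steps made the counts is not settled. Reads with near-identical copies may have been split or lost. Gene symbols came from a RefSeq-based table, which matched 26269 of 32105 IDs. Every count column was matched to a sample, and 0 columns were left unused. No 2 libraries were alike within sampling noise (lowest chi-square per degree of freedom 86.1 over 78 pairs). Total counts of 17801374 to 37309651 limit the precision of low genes.

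The members and the gene lists were chosen with earlier results of these data known. Members were found by the rule given in the report (Python 3.11.15, numpy 2.4.6, pandas 2.3.3, scipy 1.17.1). Genotypes were taken from the labels and compared with edgeR 4.0.16 (limma 3.58.1, R 4.3.3): TMM scaling, filterByExpr, a quasi-likelihood fit of all 13 livers and Benjamini-Hochberg adjustment over 16376 genes. The SE given with edgeR fold changes was back-calculated, as the absolute log2 fold change over the square root of the test's F statistic. The SE given with a DESeq2 fold change is that of DESeq2. Library measures used permutation tests with 100000 resamples, 2-sided. Named genes were the members, the measured genes of the mevalonate and sterol arms, the highest and lowest of each list, and the 3 genes on each side of the limit. Any other gene was chosen after its values were seen. Some of the genes that this rule names are not reported here one by one. Alternatives were Spearman's rho, TMM, other filters, DESeq2 1.42.0, all 13 or the 10 livers, centring on genotype and leaving out livers. The fits were tested on simulated data. Figures were drawn with matplotlib 3.10.9.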

Additional observations from a re-analysis of the deposited data

How the results depend on the processing

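The make-up of the group depended on the settings. Of the 60 partners, 37 were kept with Spearman's rho, 28 with all 13 livers, 16 with genotypes centred (with 7 mevalonate and sterol genes in the group), and 33 to 51 without single livers. Of settings added after the data were seen, 18 were kept without the 2 livers farthest from the median of MSMO1 and 33 with total counts removed. The median Spearman's rho was 0.709 for NADPH supply and 0.103 for the insulin list.

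MSMO1 in tert+/- and tert-/- against tert+/+ kept its direction without any single liver (log2 fold change 1.8 to 2.64 and 2.12 to 3.56). In tert-/- against tert+/- it was -0.25 in the 10 livers, -0.29 there by DESeq2, and -0.32 to 1.21 without single livers. FDFT1 in tert-/- against tert+/+ was -0.09 in the 10 livers, -0.08 there by DESeq2, -0.29 without tert+/- 5 and tert+/+ 1, and -0.03 to 2.74 without single livers. DESeq2 in the 10 livers called 1 member. Members with an unadjusted p under 0.05 by edgeR in tert-/- against tert+/+ fell from 13 to 3 without tert-/- 1, 8 without tert-/- 3 and 4 in the 10 livers. In the same order, 95 of 16956, 178 of 17313 and 145 of 16219 genes tested had such a p and were higher. In tert+/- against tert+/+ members with such a p fell from 14 to 4 without tert+/- 5, 7 without tert+/+ 1 and 6 without tert+/+ 3. They fell to 9 without tert+/- 4, and to 2 in the 10 livers without tert+/- 5 and tert+/+ 1. The genes tested with such a p and higher were, in this order, 125 of 16074, 312 of 16228, 78 of 16244, 87 of 16397 and 468 of 15057. Members higher in tert-/- than in tert+/- went from 26 to 12 without tert-/- 1, 44 without tert-/- 2, 42 without tert+/- 5 and 15 in the 10 livers. Of all genes tested in these settings, 7107 of 16956, 8786 of 17337, 8667 of 16074 and 7990 of 16219 were higher. The members' median log2 fold change without single livers was 0.36 to 0.78 in tert+/- against tert+/+ and -0.31 to 0.20 in tert-/- against tert+/-. The r of MSMO1 with the intestine share was -0.013 to 0.551 without single livers. With heart muscle it was -0.386 to 0.634, and -0.006 without the 2 farthest livers. The causes were not tested.

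No paired analysis was possible because the labels give the livers no replicate numbers that genotypes share. The planned search of promoters for motifs was not run, since promoter sequences were not used here. Group sizes of 3 to 5 livers limit the comparison of genotypes.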

Other observations

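The genes that ran most closely against MSMO1 were chosen after their values were seen and are given as values. RPS6KA3, a ribosomal S6 kinase, had an r of -0.984 over the 10 livers, farther from 0 than any partner's, with a range of only 1.87-fold. It stood at 470, 411, 460 and 408 normalized counts in tert+/+ 1 to 4, 371, 404, 317 and 252 in tert+/- 1, 2, 4 and 5, and 462 and 253 in tert-/- 2 and 3. The next were L3MBTL2 (-0.941), CEP170B (-0.935), SPTY2D1 (-0.921) and lgals2b (-0.918). Lgals2b, a galectin, stood at 223 to 381 in the 3 livers with the most MSMO1 and at 2415 to 5729 in the other 7. FAT3 (-0.899), a large cadherin, stood at 18.03 and 23.8 in tert+/- 5 and tert-/- 3 and at 257 to 1164 in the others.

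BHLHE41, a repressor of the clock, stood at 49.8, 51.0 and 52.6 normalized counts in tert-/- 3, tert+/- 5 and tert+/- 4, and at 63.2 to 154 in the other livers. The time of day at which each fish was sampled is not in the labels used here.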
